A study of Mus musculus with 16 samples.

Results

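Sorted striatal cells were set against sorted cortical cells of a single mouse line, PVCre, in which the red fluorescent protein tdTomato marks parvalbumin interneurons. The comparison took 8 of the 16 arrays in the series, 4 of striatum and 4 of cortex, and the transcript clusters whose annotation names a single gene, 31216 of 65956. In all 8 samples the genotype was PVCre/+; tdTomato/+ on C57BL/6J, the mice were labelled male and 30 days old, and the tissue was dorsal striatum or motor and somatosensory cortex. Cre was made under control of the parvalbumin gene and switched the reporter on, so a cell that had made Cre at any earlier time could carry the label. Each array held the RNA of 2000 fluorescent cells collected by FACS and pooled from 2 to 4 mice. The other line of the series, PV-tdTomato/+, carried the reporter without Cre, with the same age, strain and regions and 4 arrays of each region, and is used here only for comparison.

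Parvalbumin is a calcium buffer of fast-spiking interneurons, which inhibit the cell bodies of their targets. In cortex these targets are mostly pyramidal neurons; in striatum they are the GABAergic projection neurons, which carry dopamine receptors and the phosphoprotein DARPP-32. The dorsal striatum borders the lateral ventricle, whose wall is a sheet of ependymal cells with motile cilia, next to a zone that keeps making neuroblasts in the adult.

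Levels are RMA values in log2 units, and differences are striatum minus cortex on that scale. Single values reached 19.92, above what a 16-bit scanner reading gives as a log2, so the linear scale behind them is not settled and no fold is given. Background probe sets had means of 2.95 to 6.1, and a level near or under 6.1 is read as close to background. Of 30743 named genes, 20495 were tested with limma, and a gene is called where its p adjusted by Benjamini-Hochberg was under 0.05. The labels give no batch, and p-values reflect only how far the pools varied, since the sources do not tie them to separate litters or days. In sorted bulk samples, fewer cells of a type and less RNA per cell cannot be told apart.

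The label gene and the genes of GABA synthesis were high in every striatal array and split the cortical arrays. Pvalb, the gene that drives the label, stood at 10.20, 11.23, 11.87 and 11.65 in striatal replicates 1 to 4 and at 10.56, 7.93, 12.48 and 6.69 in cortical replicates 1 to 4. Gad1, which makes GABA from glutamate, stood at 11.92, 13.41, 14.43 and 13.92 in striatum and at 11.63, 8.88, 13.66 and 7.40 in cortex. Gad2, the other GABA-synthesizing enzyme, stood at 10.29, 11.25, 11.86 and 11.66 in striatum and at 9.15, 6.79, 10.94 and 6.56 in cortex. Cortical replicates 2 and 4 were thus the lowest arrays for all of these genes, and cortical replicate 3 was the highest array of the 8 for Pvalb. Slc32a1, the vesicular GABA transporter, was at 5.12, within the background range, in cortical replicate 4, and at 10.45 in cortical replicate 3.

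**Figure D1:**
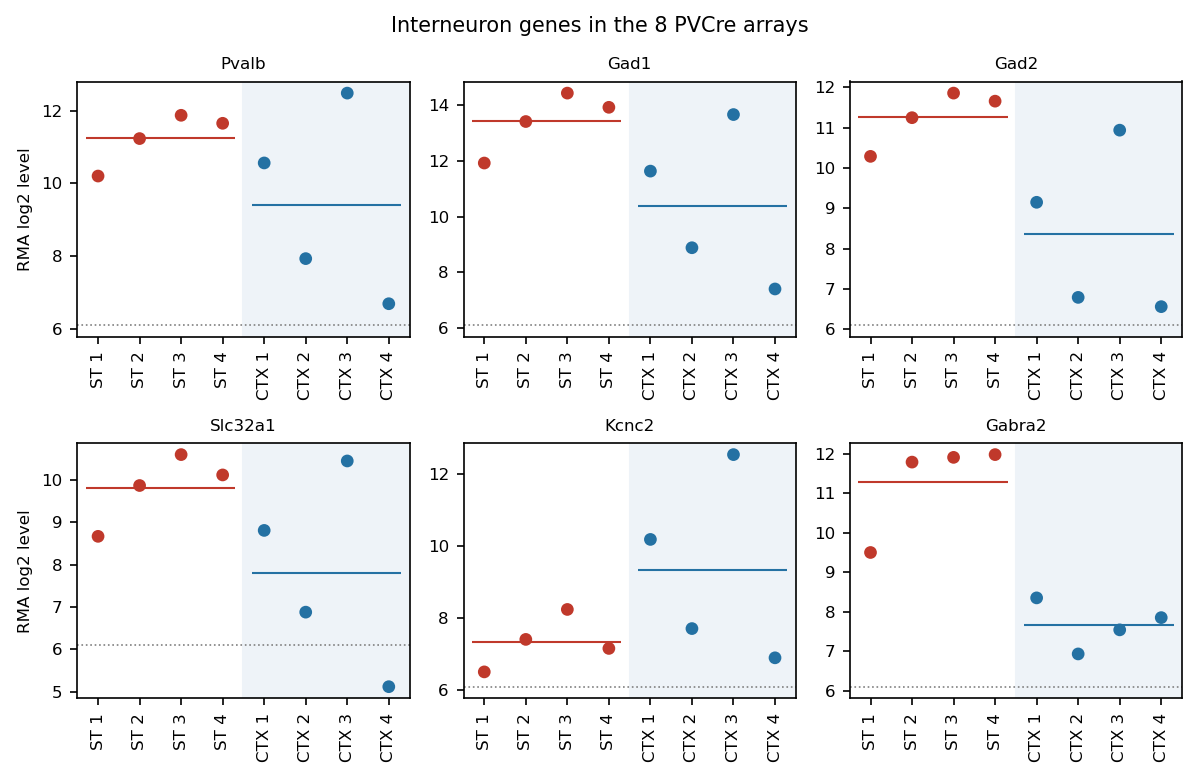
RMA log2 level (vertical axis) of 6 interneuron genes in each PVCre array; red points are the 4 striatal (ST) and blue points the 4 cortical (CTX) replicates, solid lines are group means, and the dotted line is the highest background mean, 6.1. Pvalb, Gad1, Gad2 and Slc32a1 are lowest in CTX 2 and CTX 4, whereas all 4 striatal arrays of Gabra2 lie above all cortical ones.

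These spreads left the label gene and the GABA genes uncalled. Pvalb differed by 1.83 ± 1.43 (SE; limma adjusted p = 0.58), Gad1 by 3.03 ± 1.08 (adjusted p = 0.17) and Gad2 by 2.90 ± 0.82 (adjusted p = 0.071). Of 7 GABA neuron identity genes 0 were called by limma, where 3.89% of all genes tested were called, with 2 at an unadjusted p under 0.05, and their median difference was 0.68 against -0.01 over all genes tested. Without cortical replicates 2 and 4 that median was 0.27 and the difference of Pvalb was -0.28. Counts and calls that follow are therefore also given, where they change, without these 2 cortical arrays, which leaves the cortical mean to 2 arrays.

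Of 24 tested genes of parvalbumin interneurons, Pvalb among them, 1 rose and 1 fell (4.17% each, against 2.85% and 1.04% of all genes tested). Without cortical replicates 2 and 4, 0 rose and 2 fell, where 1.38% and 0.171% of all genes tested did. The median of the list then moved from 0.25 to -0.24. At an unadjusted limma p under 0.05, that fit gave 1 rise and 7 falls, against 4 and 3 with all arrays. Nxph1, a secreted ligand of neurexins, was at 9.30 to 11.35 in striatum and 6.28 to 9.30 in cortex, and was higher in striatum by 2.98 ± 0.64 (adjusted p = 0.015; 0.27 without cortical replicates 2 and 4). Satb1, a chromatin organizer needed for the maturation of cortical interneurons, was at 6.99, 6.82, 7.04 and 7.04 in striatum and at 8.40, 7.94, 9.04 and 7.66 in cortex. It fell by 1.29 ± 0.31 (adjusted p = 0.03) and stayed called without the 2 arrays (-1.75, adjusted p = 0.018). Kcnc2, a potassium channel of fast-spiking cells, was at 6.51 to 8.24 in striatum and at 10.18, 7.71, 12.53 and 6.90 in cortex; its difference, -2.0 ± 1.19, was not called (adjusted p = 0.45).

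Markers of other cells were present in both regions. Myelin genes averaged 13.62 to 13.89 in striatal and 14.18 to 14.73 in cortical arrays, and microglial genes 7.57 to 8.96 and 7.24 to 9.51, all above the background range. Cortical pyramidal neuron markers averaged 7.32 to 7.53 in striatum and 7.20 to 7.99 in cortex, and Slc17a7, the vesicular glutamate transporter of pyramidal cells, reached 7.18, in cortical replicate 1. Xist, the RNA of the inactive X chromosome, was at 13.40 or above in 6 of the 8 arrays and at 5.90 and 6.56 in replicate 2 of striatum and cortex, although all mice were labelled male. How far these cells and mice enter each difference was not tested.

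More of the called genes were higher than lower in striatum. Of 20495 genes tested, 797 were called, 584 higher in striatum (2.85%) and 213 lower (1.04%). The counts of list members given below are to be read beside these shares. The called rises had a median of 1.33 and reached 8.62; the called falls had a median of -0.89 and reached -2.92. A difference of at least 1 was seen in 402 of the rises and 77 of the falls. The striatal and cortical arrays did not overlap for 770 of the called genes and for 2737 of all genes tested (13.4%; 5.96% higher and 7.39% lower in striatum). In 262 of the called rises the cortical mean lay within the background range, as did the striatal mean in 19 of the called falls, so the sizes of those differences depend on the background.

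A smaller share of the falls than of the rises stayed called without the 2 cortical arrays low in GABA genes. Without them 318 genes were called, 283 higher (1.38%) and 35 lower (0.171%). Of the genes called with all 8 arrays, 282 of 584 rises and 22 of 213 falls were still called. All 797 kept their sign, with a median of 1.28 over the rises and -0.76 over the falls. Among single arrays, leaving out cortical replicate 2 (512 genes called) or striatal replicate 4 (526) changed the count most. The falls numbered 96 to 137 without any 1 array other than cortical replicate 3 (226 without it). They numbered 97 without cortical replicate 4, 97 without striatal replicate 4 and 52 without replicates 2 of both regions. Each of these fits also had fewer arrays. Whether the loss of falls was particular to the arrays low in GABA genes was not tested. In a fit on the 8 PVCre arrays alone, 581 genes were called higher and 446 lower.

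**Figure D2:**
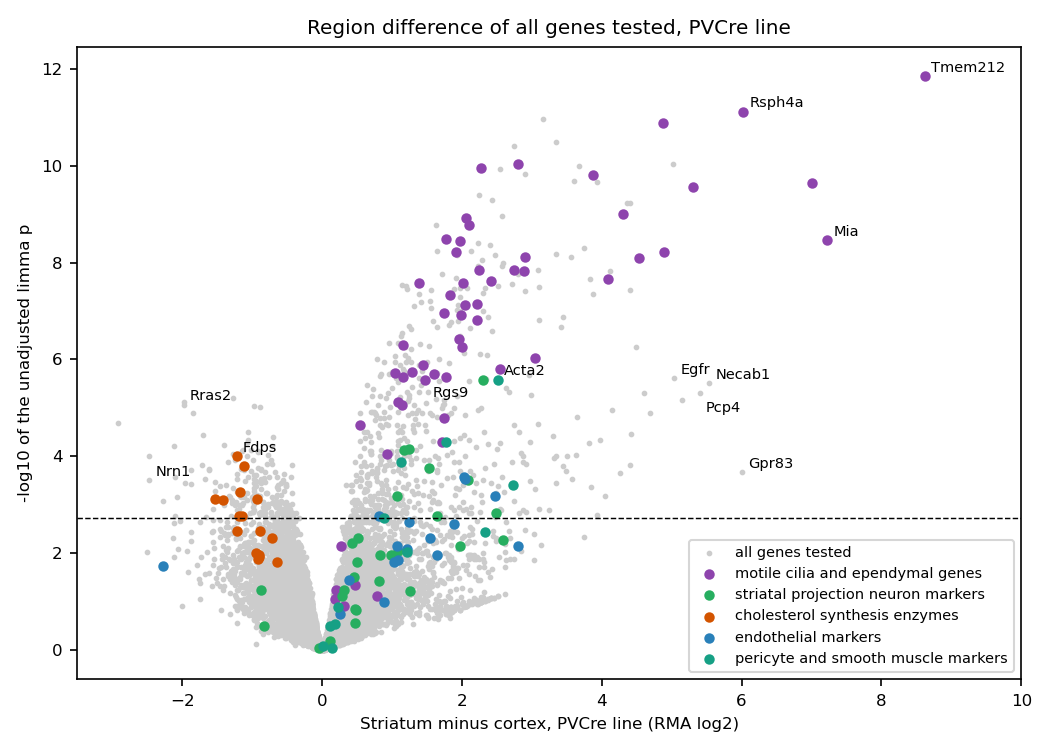
Each point is 1 of 20495 genes, placed by its difference between striatum and cortex in the PVCre line (horizontal axis, RMA log2) and by -log10 of its unadjusted limma p (vertical axis); coloured points are members of 5 gene lists and the dashed line marks where the adjusted p reaches 0.05. Motile cilia genes hold the upper right, led by Tmem212 at 8.62, and cholesterol synthesis enzymes lie left of 0.

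Motile cilia genes rose together. Of 66 listed genes of motile cilia and ependymal cells, 59 were measured and 55 passed the filter on low values. Of these 55, 49 rose and 0 fell, with a median of 1.99 against -0.01 over all genes tested. The count of rises was 47 without cortical replicates 2 and 4, 48 without replicates 2 of both regions and 49 without any 1 PVCre array. The 59 measured genes averaged 7.81, 8.55, 7.91 and 8.28 in striatal replicates 1 to 4 and 5.84, 6.02, 5.73 and 5.80 in cortex, where the list mean thus lay within the background range in each array.

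Motile cilia are built on an axoneme of microtubule doublets that slide past each other through dynein arms, under control of radial spokes. Factors of the RFX family bind a palindromic element, the X-box, in promoters of ciliary genes. The promoters of 52 of the 59 measured genes were found in the RefSeq table (GRCm38.p6, from 250 bases before to 50 after a start), and both strands were searched for the X-box, written as GTTNCC, then 2 or 3 unspecified bases, then GNAAC. These motifs were chosen with the differences known. The shorter spelling was in 4 and the longer in 6 of the 52 promoters, no gene having both, against 0.777% and 0.936% of 27025 genes. Together they were in 10 of the 52 genes (19.2%), against 1.71% of genes and 1.47% of 32851 promoters. In 9 of the 10 the gene was called higher in striatum; the tenth, Tekt4, was under the filter on low values. A match describes the letters of a window and does not show that a factor binds there. The windows below hold the shorter spelling in capitals, upstream of a dynein heavy chain gene, Dnah9 (chr11:66168591-66168663, minus strand), and a dynein light chain gene, Dynlrb2 (chr8:116504934-116505006, plus strand), each read along the gene's own strand.
Dnah9: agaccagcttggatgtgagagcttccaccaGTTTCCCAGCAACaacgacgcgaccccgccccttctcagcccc
Dynlrb2: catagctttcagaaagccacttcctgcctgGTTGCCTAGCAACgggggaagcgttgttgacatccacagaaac

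Dnah9 was at 7.27, 8.07, 7.54 and 7.95 in striatum and at 5.68, 5.89, 5.65 and 5.67 in cortex, a difference of 1.98 ± 0.16 (adjusted p = 2.6e-06). Dynlrb2 was at 9.05, 11.01, 9.25 and 9.07 in striatum and at 6.19, 7.05, 6.74 and 6.21 in cortex, a difference of 3.05 ± 0.37 (adjusted p = 0.00016). Both genes are named here for their promoters, after their values were seen, and in both striatal replicate 2 was the highest array.

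Of all genes named, Tmem212, a membrane protein gene, had the largest difference. It was at 14.43, 15.63, 13.99 and 15.02 in striatum and at 6.27, 6.73, 5.59 and 6.01 in cortex, a difference of 8.62 ± 0.38 (adjusted p = 2.9e-08). Rsph4a, a radial spoke head protein, was at 10.87, 12.45, 11.11 and 12.15 against 5.81, 5.66, 5.40 and 5.62, a difference of 6.02 ± 0.30. Every striatal level of these genes was well above the background range, and the cortical levels lay within or next to it.

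Fam183b, whose product sits in the ciliary axoneme, was at 11.63 to 13.21 in striatum and 5.03 to 5.76 in cortex, a difference of 7.0 ± 0.45. Mia, which encodes a small secreted protein, was at 11.85 to 14.15 and 5.36 to 5.79, a difference of 7.22 ± 0.57. Spata18, which acts in mitochondrial quality control, rose by 4.87 ± 0.25, and Ccdc153, a coiled-coil protein gene, by 4.53 ± 0.38. The secreted chemoattractant Rarres2 (chemerin) rose by 4.89 ± 0.40 and the tetraspan membrane protein Tm4sf1 by 5.30 ± 0.35. All 6 had an adjusted p of at most 3.9e-06 (limma), and each stayed called without cortical replicates 2 and 4.

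Structural parts of the axoneme rose with them. Dnah6, an inner arm dynein heavy chain, was at 7.75 to 8.68 in striatum and 5.22 to 5.46 in cortex (2.80 ± 0.17). Hydin, a central pair protein whose loss causes hydrocephalus, was at 7.30 to 8.06 and 5.27 to 5.45 (2.27 ± 0.14). Enkur, which lines the inside of the doublets, was at 9.68 to 10.69 and 6.00 to 6.78 (3.87 ± 0.24). The 6 tested members that were not called were Rfx2, Rfx3 and Rfx4, the RFX factors on the list, with Dnaaf1, Ccdc114 and Tppp3. Their differences were 0.18 to 0.79, and the arrays of 4 of the 6 did not overlap. In the list 53 of 55 tested genes did not overlap, all higher in striatum, as for 5.96% of all genes tested.

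Choroid plexus, the other ciliated tissue of the ventricle, was checked with 12 genes, of which 5 passed the filter and 1 rose. The gene that rose was Calml4, a calmodulin-like gene (1.11 ± 0.14, adjusted p = 0.0002). Ttr, the transthyretin gene that defines choroid plexus, was at 5.57 to 5.79 in striatum and 5.60 to 5.93 in cortex, within the background range in all 8 arrays. Otx2 and Kcne2, further choroid plexus genes that passed the filter, were at 5.57 to 6.53 in all 8 arrays.

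Some genes of progenitors and newborn neurons of the ventricular wall rose as well. Of 16 such genes 4 rose and 0 fell, with a median of 0.36. Cd24a, a surface protein of neuroblasts and also of ependymal cells, was at 11.75, 13.02, 12.98 and 13.27 in striatum and at 8.18, 8.10, 8.29 and 8.52 in cortex. It rose by 4.49 ± 0.53 (adjusted p = 9.9e-05). Egfr, the growth factor receptor of dividing progenitors, was at 9.08, 10.85, 11.51 and 11.72 against 5.69, 5.66, 5.85 and 5.79, and rose by 5.04 ± 0.67 (adjusted p = 0.00032). In both genes striatal replicate 1 was the lowest striatal array and still above all cortical arrays.

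Dcx, a microtubule protein of migrating neurons, rose by 1.57 ± 0.37 and the transcription factor Sox11 by 0.87 ± 0.22, with overlapping arrays. Both lost their call without cortical replicates 2 and 4 (adjusted p = 0.4 and 0.5), whereas Cd24a and Egfr kept it (0.0037 and 0.011). The division markers Mki67 and Top2a were at 5.60 to 6.59 and 5.35 to 6.00 in striatum and at 5.23 to 5.71 and 5.24 to 5.58 in cortex, and neither was called (adjusted p = 0.71 and 0.77).

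Genes of striatal neurons formed a further group of rises. Of 28 tested markers of striatal projection neurons 8 rose and 0 fell, with a median of 0.82, but 1 rose without cortical replicates 2 and 4 (median 0.63) and 1 rose without replicates 2 of both regions. Rgs9, which shortens dopamine receptor signals, was at 8.93, 9.73, 8.19 and 8.37 in striatum and at 6.39, 6.70, 6.63 and 6.31 in cortex. It rose by 2.30 ± 0.31 (adjusted p = 0.00035) and was the marker still called without the 2 cortical arrays (0.0099). Drd2, the dopamine D2 receptor, was at 9.21, 10.40, 9.11 and 9.19 against 7.19, 7.35, 7.91 and 7.12 and rose by 2.09 ± 0.44 (adjusted p = 0.014; 0.17 without the 2 arrays).

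Drd1, the dopamine D1 receptor, overlapped between regions, at 7.63 to 9.04 in striatum and 7.15 to 9.04 in cortex, and was not called (0.47 ± 0.41). Ppp1r1b, the gene of DARPP-32, was low in both regions, at 6.85 to 7.87 and 5.93 to 6.21, and rose by 1.07 ± 0.25 (adjusted p = 0.024). Pde10a, a striatal phosphodiesterase, rose by 1.53 ± 0.30, Actn2, an actin crosslinker, by 1.17 ± 0.21, and Pde1b, another phosphodiesterase, by 2.49 ± 0.63. The list averaged 7.75 to 8.22 in striatum and 6.81 to 7.32 in cortex, so the groups did not overlap. The part of projection neuron RNA in the other differences was not tested.

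Of 31 tested transcription factors of regional patterning 4 rose and 0 fell; without cortical replicates 2 and 4, 0 were called by limma, with 10 rises and 0 falls at an unadjusted p under 0.05. The 4 were Rarb, a retinoic acid receptor (1.24 ± 0.23), Foxo1 (1.15 ± 0.27), Meis2 (1.40 ± 0.35) and Bcl11b, also called Ctip2 (1.64 ± 0.42). Rarb and Bcl11b are on the projection neuron list too. Meis2 was at 8.83, 8.89, 8.80 and 8.58 in striatum and at 7.38, 7.45, 6.82 and 7.83 in cortex, with no overlap.

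Genes known from striatal interneurons included some of the largest differences. Of 14 measured genes 9 passed the filter, 3 of these rose and 0 fell, and the median was 1.13. Crabp1, which binds retinoic acid, was at 9.99, 12.47, 11.98 and 12.71 in striatum and at 7.52, 7.36, 7.29 and 7.30 in cortex, and rose by 4.42 ± 0.75 (adjusted p = 0.0027). Il1rapl2, of the interleukin-1 receptor family, was at 10.27 to 12.51 and 6.24 to 7.84 and rose by 4.69 ± 0.73 (adjusted p = 0.0012; 0.042 without cortical replicates 2 and 4). Gpr83, a G protein-coupled receptor, was at 11.59, 14.02, 14.67 and 14.03 against 7.99, 6.60, 10.45 and 5.27. It rose by 6.00 ± 1.22 (adjusted p = 0.011) and lost its call without the 2 arrays (4.36, adjusted p = 0.22).

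Of 17 tested markers of other GABA interneurons 1 rose (5.88%, against 2.85% of all genes tested) and 0 fell. Their median was -0.09, with 7 of the 17 differences positive. Without cortical replicates 2 and 4, 0 were called by limma, with 1 rise and 2 falls at an unadjusted p under 0.05. Sst, the somatostatin gene of another interneuron class, was at 12.69, 8.61, 13.05 and 11.02 in striatum and at 8.38, 7.20, 8.17 and 6.66 in cortex. The regions did not overlap, yet the difference of 3.74 ± 1.11 was not called (adjusted p = 0.088). Npy, a neuropeptide gene of the same list, differed by -0.39 ± 1.3 (limma adjusted p = 0.92). Th, the dopamine synthesis enzyme found in some striatal interneurons, was at 7.61 to 8.11 and 6.58 to 7.02 (1.13 ± 0.70, adjusted p = 0.47). Chat, the acetylcholine synthesis enzyme of cholinergic interneurons, was at 4.93 to 5.10 in all 8 arrays, under the filter and within background. Gdnf, a growth factor made by striatal parvalbumin cells, was likewise under the filter, at 5.61, 6.25, 5.84 and 5.71 in striatum and at 4.96, 4.91, 4.74 and 4.79 in cortex. Its arrays did not overlap, and its striatal level touched the top of the background range in replicate 2.

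Several neuronal genes outside the lists of striatal neurons were among the 15 largest named rises. Necab1, a neuronal calcium-binding protein, was at 12.25, 13.98, 14.39 and 13.98 in striatum and at 8.90, 7.10, 8.46 and 7.96 in cortex (5.54 ± 0.75, adjusted p = 0.00039). Pcp4, which modulates calmodulin, was at 16.16 to 17.02 and 9.30 to 13.68 (5.40 ± 0.77). Lgi1, a secreted synaptic protein mutated in epilepsy, was at 12.43, 14.40, 14.62 and 14.63 against 9.86, 7.29, 9.59 and 8.74 (5.15 ± 0.75). Hapln1, a link protein of the matrix around neurons, was at 9.79 to 12.26 and 6.05 to 8.15 (4.60 ± 0.65). These 4 genes stayed called without cortical replicates 2 and 4, at adjusted p = 0.016 to 0.023.

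Potassium channel genes had more rises than falls, as did all genes tested. Of 44 potassium channel genes and partners 7 rose (15.9%) and 1 fell (2.27%), against 2.85% and 1.04% of all genes tested. Without cortical replicates 2 and 4, 2 rose and 1 fell and the median moved from 0.22 to -0.15. Kcnn3, a calcium-activated channel, was at 7.02 to 7.20 in striatum and 5.85 to 6.16 in cortex (1.04 ± 0.13, adjusted p = 0.00018). Kcna4, of the A-type current, was at 8.24, 10.59, 9.58 and 9.70 against 7.27, 6.42, 6.41 and 7.05 (2.74 ± 0.44, adjusted p = 0.0019). Kcnd2, Kcnd3, Dpp6 and Dpp10, which form or assist other A-type channels, rose by 1.62 to 2.51, and Kcnab1, a channel subunit, by 3.57 ± 0.75. Kcnn3 and Kcna4 kept their call without the 2 arrays; the member that fell was Kcnh5 (-1.22 ± 0.28).

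In the 3 receptor lists 7 calls were made. Gabra2, a GABA-A receptor subunit and the only called gene of 11 in its list, was at 9.50, 11.79, 11.91 and 11.98 in striatum and at 8.35, 6.93, 7.54 and 7.85 in cortex (3.63 ± 0.68, adjusted p = 0.0058). Gria4, an AMPA receptor subunit of fast-spiking cells, rose by 2.46 ± 0.48, while the kainate receptor subunits Grik2 and Grik3 fell by 1.62 ± 0.33 and 0.87 ± 0.19, in a list of 20. Of 34 neuromodulator receptors 3 rose and 0 fell: Drd2, the cannabinoid receptor Cnr1 (3.51 ± 0.66) and the melanocortin receptor Mc4r (3.05 ± 0.68). Cnr1 was at 7.84, 9.93, 10.25 and 10.14 in striatum and at 5.59 to 6.39 in cortex. Without cortical replicates 2 and 4, Gabra2, Gria4, Cnr1 and Mc4r were not called (adjusted p = 0.098 to 0.16), whereas Grik3 was (-1.09, adjusted p = 0.022).

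Vascular genes were higher in striatum, most of all in striatal replicate 1. Of 17 tested endothelial genes 4 rose and 0 fell (median 1.22), and of 12 pericyte and smooth muscle genes 5 rose and 0 fell (median 1.01). The endothelial list averaged 9.17 in striatal replicate 1, 7.49 to 7.86 in the other striatal arrays and 6.86 to 7.11 in cortex. The mural list averaged 7.41, then 6.17 to 6.39, and 5.62 to 5.76 in cortex, within the background range. Without striatal replicate 1, 5 endothelial and 6 mural genes were called, with medians of 0.70 and 0.62. Without cortical replicates 2 and 4, 0 endothelial genes were called by limma, with 13 rises and 0 falls at an unadjusted p under 0.05, and 1 mural gene was called.

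That mural gene was Acta2, smooth muscle actin, at 9.02, 8.81, 7.43 and 7.63 in striatum and at 5.39, 5.55, 5.76 and 6.16 in cortex (2.51 ± 0.34, adjusted p = 0.00035). Rgs5, a pericyte gene, was at 11.28 in striatal replicate 1, 7.74 to 8.28 in the others and 5.77 to 6.84 in cortex (2.73 ± 0.59, adjusted p = 0.017). Flt1, a receptor of vascular growth factor on endothelium, was at 9.81, 7.70, 7.34 and 7.70 against 6.08 to 6.15 (2.03 ± 0.42, adjusted p = 0.013). The tight junction gene Cldn5 was at 9.05 in striatal replicate 1, 6.47 to 7.78 in the others and 5.73 to 6.08 in cortex and was not called (adjusted p = 0.15).

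Of 19 astrocyte genes tested 3 rose (15.8%, against 2.85% of all genes tested) and 0 fell, with a median of 0.27; 1 rose without cortical replicates 2 and 4. Sox9, a transcription factor of astrocytes and ependymal cells, was at 8.06, 8.92, 8.06 and 8.04 in striatum and at 6.39 to 6.69 in cortex (1.75 ± 0.26, adjusted p = 0.00077). Mlc1, an astrocyte membrane protein, rose by 1.66 ± 0.40 and Crym, which binds thyroid hormone, by 0.78 ± 0.19. At an unadjusted limma p under 0.05, 7 astrocyte genes rose and 0 fell. The 22 measured genes averaged 6.83 to 7.30 in striatal and 6.38 to 6.89 in cortical arrays, above 6.1 in each. The defining astrocyte genes Gfap and Aldh1l1, in contrast, lay within the background range in all 8 arrays, at 5.19 to 5.59 and 5.73 to 5.89. Of 19 microglial genes 0 were called by limma, with 1 rise and 0 falls at an unadjusted p under 0.05.

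**Figure D3:**
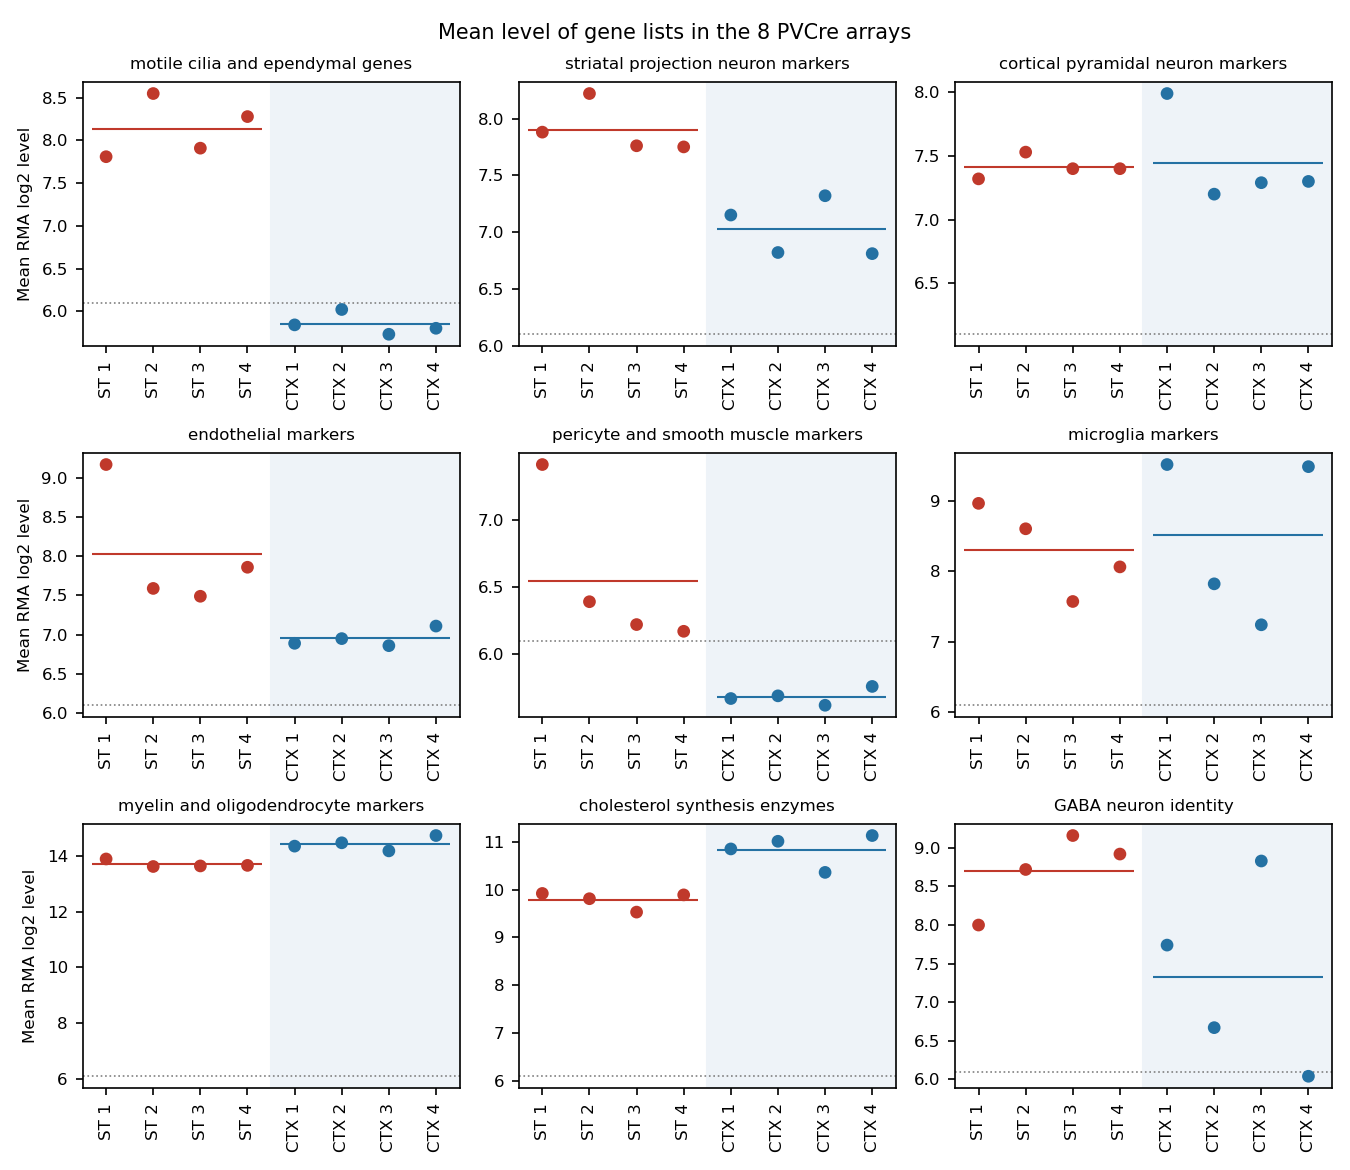
Mean RMA log2 level (vertical axis) of 9 gene lists in each PVCre array; red points are striatal (ST) and blue points cortical (CTX) replicates, solid lines are group means and the dotted line is the highest background mean, 6.1. The cilia list separates the regions (7.81 to 8.55 against 5.73 to 6.02), the 2 vascular lists peak in ST 1, and the myelin and cholesterol lists are higher in all cortical arrays.

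The falls included enzymes of cholesterol synthesis. The pathway runs from acetyl-CoA through mevalonate and squalene to cholesterol, and in brain it serves membranes and myelin in particular. All 16 tested members had lower means in striatum; 8 were called lower and 0 higher, with a median of -1.03 against -0.01 over all genes tested. The list averaged 9.92, 9.81, 9.53 and 9.89 in striatum and 10.85, 11.01, 10.36 and 11.13 in cortex. The arrays of 12 of the 16 did not overlap, all lower in striatum, as for 7.39% of all genes tested. The calls depended on the arrays and the fit. Without cortical replicates 2 and 4, 0 of 16 were called by limma (median -0.80). At an unadjusted p under 0.05 that fit gave 9 falls, against 16 with all arrays. The calls also numbered 0 without replicates 2 of both regions (median -1.04) and 2 to 10 without any single PVCre array. They numbered 6 with quantile normalization, 15 with the replicate number as a block and 14 with array weights. Those last 2 fits called 2093 and 2483 of all genes tested.

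In order of the pathway, the mevalonate kinase Mvk was at 7.19, 7.35, 7.13 and 7.12 in striatum and at 8.24, 8.44, 7.85 and 7.96 in cortex (-0.93 ± 0.22, adjusted p = 0.027). The next kinase, Pmvk, was at 8.34 to 8.94 and 9.52 to 10.16 (-1.11 ± 0.22, adjusted p = 0.0087). The decarboxylase Mvd was at 7.09, 7.64, 7.30 and 7.30 against 8.46, 8.80, 8.35 and 8.41 (-1.17 ± 0.26, adjusted p = 0.021). No striatal array of these 3 genes reached the lowest cortical array.

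Farther along, Fdps, which makes farnesyl pyrophosphate, was at 12.24, 12.06, 11.96 and 12.66 in striatum and at 13.39, 13.52, 13.34 and 13.53 in cortex (-1.22 ± 0.23, adjusted p = 0.0061). Squalene epoxidase, Sqle, fell by 1.41 ± 0.33 and the later enzymes Lss, Cyp51 and Hsd17b7 by 1.15 ± 0.30, 1.19 ± 0.31 and 1.53 ± 0.36. Myelin genes moved the same way in level, as given below, and their part in this difference was not tested. Of 16 genes of sterol regulation and transport 0 were called by limma, with 1 rise and 4 falls at an unadjusted p under 0.05. Srebf2, the factor that switches on the pathway, was at 8.66 to 8.76 in striatum and 8.93 to 9.71 in cortex and did not pass (-0.69 ± 0.31, adjusted p = 0.3).

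Promoters of sterol genes are known to carry CCAAT boxes, bound by the factor NF-Y, beside sterol regulatory elements. RefSeq promoters (GRCm38.p6, the same window as above) were found for 13 of the 16 enzymes, and CCAATC or its complement was in 12 of the 13 (92.3%), against 18.2% of 27025 genes and 16.1% of 32851 promoters. A sterol regulatory element, spelled TCACNCCAC and searched on both strands, was in 1 of the 13, Hmgcs1, and in 1.44% of genes; the 2 motifs share too few letters to be counted at the same site. Both spellings were chosen with the differences known, and a match shows letters only. The windows below are from 3 called genes and have the CCAAT box in capitals, as GATTGG where it lies on the other strand: Mvd (chr8:122443423-122443479, minus strand), Mvk (chr5:114444224-114444263, plus strand) and Hsd17b7 (chr1:169969244-169969309, minus strand).
Mvd: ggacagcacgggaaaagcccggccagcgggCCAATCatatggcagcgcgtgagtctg
Mvk: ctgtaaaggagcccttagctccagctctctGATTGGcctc
Hsd17b7: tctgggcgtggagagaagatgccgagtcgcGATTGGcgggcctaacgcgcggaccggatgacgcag

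Myelin genes were lower in every striatal array than in any cortical array on average, but none was called. Of 19 tested genes 0 were called by limma, with 0 rises and 2 falls at an unadjusted p under 0.05, and the median was -0.77. The arrays of 13 of the 19 did not overlap, all 13 lower in striatum, as for 7.39% of all genes tested. Mag, an adhesion protein of the inner myelin wrap, was at 15.56, 15.58, 15.45 and 15.37 in striatum and at 16.27, 16.58, 16.36 and 16.76 in cortex (-1.0 ± 0.40, adjusted p = 0.23). Myrf, the transcription factor of myelin genes, was at 9.40 to 9.58 and 10.60 to 11.40 (-1.49 ± 0.59, adjusted p = 0.23). The shared spread comes from all 16 arrays, and myelin genes varied widely within each PV-tdTomato group. There the list averaged 12.07, 11.91, 14.09 and 14.2 in striatal replicates 1 to 4 and 12.39, 12.48, 14.58 and 14.21 in cortical replicates 1 to 4. In a fit on the 8 PVCre arrays alone 10 of the 19 were called lower.

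Of the 15 named falls, Nrn1 was the largest beside Cnksr3. Nrn1 encodes neuritin, a growth protein of excitatory neurons; it was at 5.40, 5.30, 5.28 and 5.42 in striatum, within background, and at 9.50, 8.15, 6.21 and 7.43 in cortex (-2.47 ± 0.52, adjusted p = 0.014). Its highest array, cortical replicate 1, was also the highest for the pyramidal list, at 7.99. That list, which holds Nrn1, was called in both directions. Of its 24 tested members 2 rose (8.33%), Pcp4 among them, and Nrn1 alone fell (4.17%). The shares over all genes tested were 2.85% and 1.04%, and the median of the list was -0.14. Cnksr3, a scaffold of kinase signalling, was at 10.57, 11.25, 9.62 and 9.80 in striatum and at 12.61, 13.14, 12.37 and 13.01 in cortex (-2.47 ± 0.46, adjusted p = 0.0062).

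Rras2, a small GTPase, was at 9.86, 10.23, 8.88 and 9.43 in striatum and at 11.48, 11.72, 10.97 and 12.17 in cortex (-1.98 ± 0.29, adjusted p = 0.00088). Cemip2, a cell surface hyaluronidase, was at 7.56 to 8.16 and 9.36 to 10.21 (-1.84 ± 0.28, adjusted p = 0.0012). These were the only 2 of the 15 named falls still called without cortical replicates 2 and 4 (adjusted p = 0.03 and 0.042). Of the 15 named rises, 14 were still called, the exception being Gpr83.

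Nfasc, a protein of axon initial segments, nodes and paranodes, was at 12.54, 13.85, 13.48 and 13.46 in striatum and at 15.07, 15.20, 14.89 and 15.68 in cortex (-1.87 ± 0.38, adjusted p = 0.0099). Prom1, the membrane protein prominin-1, fell by 2.10 ± 0.44, Tmem163, a zinc transporter, by 1.87 ± 0.40, and Dusp15, a phosphatase of differentiating oligodendrocytes, by 1.66 ± 0.44. Frmd4a, Tssc4, Parvb, Kndc1, Tmem141 and Eml1 fell by 1.68 to 2.27. In all of these the lowest cortical array was above the highest striatal array, as the naming rule required.

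**Figure D4:**
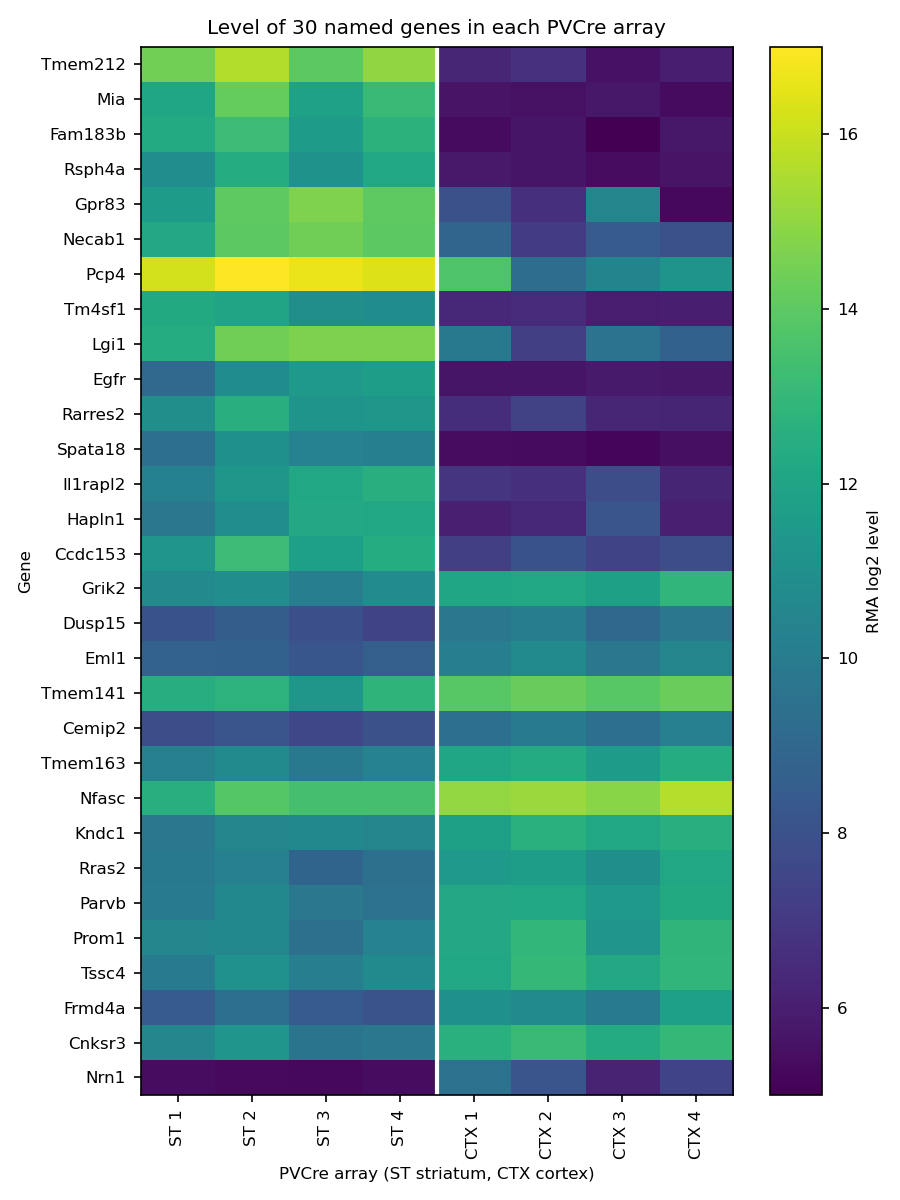
RMA log2 level (colour bar) of the 15 largest named rises and 15 largest named falls (rows) in the 4 striatal and 4 cortical PVCre arrays (columns, ST and CTX). Tmem212, Mia, Fam183b, Rsph4a and Spata18 are near background in all cortical arrays, whereas most of the falls are lower but still above 7 in striatum, Nrn1 excepted at 5.28 to 5.42.

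Cadherin genes were called in both directions. Of 25 cadherins and protocadherins 3 rose and 4 fell. Pcdh10 was at 10.26, 10.05, 9.87 and 9.65 in striatum and at 11.06, 10.84, 11.49 and 11.83 in cortex (-1.35 ± 0.26, adjusted p = 0.0075), and was the only member called without cortical replicates 2 and 4 (0.048). Pcdh7, Pcdh17 and Cdh11 fell by 1.53 ± 0.34, 1.22 ± 0.25 and 1.09 ± 0.29, and Cdh8, Pcdh15 and Cdh13 rose by 2.91 ± 0.74, 2.06 ± 0.51 and 1.90 ± 0.44. Of 41 axon guidance genes the receptor Epha4 rose (1.76 ± 0.46) and the semaphorin Sema5a fell (-1.61 ± 0.32), 4.88% of the list against 3.89% of all genes tested. Neither was called without cortical replicates 2 and 4 (adjusted p = 0.16 for both).

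Of 21 genes of the perineuronal net and matrix 3 rose (14.3%, against 2.85% of all genes tested) and 0 fell. The rises were Hapln1, the matrix protease Adamts5 (2.97 ± 0.52) and Crtac1 (2.47 ± 0.65). Of these Hapln1 was still called without cortical replicates 2 and 4, and Adamts5 and Crtac1 were not (adjusted p = 0.078 and 0.43). Of 32 synaptic vesicle genes 3 rose (9.38%) and 0 fell: the synaptotagmin Syt10 (2.10 ± 0.37), Doc2b (1.11 ± 0.18) and Rab3c (4.04 ± 0.93). Rab3c, a vesicle GTPase, was at 10.88 to 13.12 in striatum and at 8.98, 6.91, 10.91 and 6.02 in cortex, lowest in the 2 arrays low in GABA genes, and was not called without them (2.30, adjusted p = 0.37), nor was Syt10 (0.053), whereas Doc2b was (0.022).

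Among 12 catecholamine genes, Drd2 and Maob rose and Ddc fell (25.0% called, against 3.89% of all genes tested). Maob, a monoamine oxidase, was at 6.94 to 7.91 in striatum and 5.77 to 6.17 in cortex (1.47 ± 0.24, adjusted p = 0.0019). Ddc, which makes dopamine from L-DOPA, was at 8.35, 8.54, 7.68 and 8.10 against 9.39, 10.33, 8.94 and 9.84 (-1.46 ± 0.32, adjusted p = 0.017). Without cortical replicates 2 and 4 Maob was still called (adjusted p = 0.028), and Drd2 and Ddc were not (0.17 and 0.28). Of 7 tested GDNF family ligands and receptors 0 were called by limma, with 0 rises and 2 falls at an unadjusted p under 0.05. Gfra1, the main coreceptor of GDNF, was at 8.58 to 8.84 in striatum and 9.60 to 10.35 in cortex and was not called (-1.10 ± 0.49, adjusted p = 0.3).

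Genes known to respond to cell dissociation were checked in 3 lists, beside 3.89% called over all genes tested. Of 28 immediate early genes 1 was called (3.57%), the clock gene Per1 (-0.71 ± 0.14, adjusted p = 0.0079; 0.047 without the 2 cortical arrays), and the list averaged 9.14 to 9.75 in striatum and 8.98 to 9.77 in cortex. Of 23 heat shock and unfolded protein genes Hspb1 (0.83 ± 0.16) and Bag3 (0.50 ± 0.13) rose (8.7%). Of 19 cytokines and chemokines the growth factor Tgfb2 rose (1.32 ± 0.22), 5.26% of the list. Without cortical replicates 2 and 4 Hspb1, Bag3 and Tgfb2 were not called (adjusted p = 0.084, 0.26 and 0.052).

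The same contrast in the PV-tdTomato line shares no array with the PVCre one and called 476 genes, 355 higher (1.73%) and 121 lower (0.59%) in striatum. Both lines called 274 genes, 34.4% of the PVCre calls and 57.6% of the PV-tdTomato calls, and 272 of the 274 had the same sign. The cilia list rose in both, with 48 of 55 called higher and 0 lower in PV-tdTomato (median 1.52) against 49 (median 1.99) in PVCre. Tmem212 rose by 5.87 in PV-tdTomato and 8.62 in PVCre, Rsph4a by 4.61 and 6.02, and Spata18 by 4.37 and 4.87; the line difference was not called for these genes (adjusted p = 0.069, 0.33 and 0.91).

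Projection neuron markers rose in 7 of 28 cases in PV-tdTomato (median 0.91). The cholesterol and vascular lists gave other counts there: 0 of 16 cholesterol enzymes called by limma (median -0.37, 1 fall at an unadjusted p under 0.05), 0 of 17 endothelial genes (median -0.02, none at that p) and 1 of 12 mural genes (median 0.01). The line difference was called by limma for 0 genes of these 4 lists and of the cilia list. At an unadjusted p under 0.05 it was seen for 17 cilia, 12 endothelial, 3 mural, 5 cholesterol and 5 projection neuron genes. Markers of other GABA interneurons differed more, with 5 of 17 called for the line difference, against 0.195% of all genes tested. In PV-tdTomato 1 of these 17 rose and 9 fell (median -2.15), and in PVCre 1 rose and 0 fell (median -0.09). Striatal interneuron genes rose in 7 of 9 cases in PV-tdTomato (median 4.75) and in 3 in PVCre (median 1.13), with 1 line difference called.

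Over all genes the difference between the lines was called for 40 (0.195%), 30 with the larger value in PVCre and 10 with the smaller. The count was 21 to 25 without cortical replicate 1, 2 or 4 or striatal replicate 2 or 4, and 6 without cortical replicates 2 and 4 together. Necab1 rose by 5.54 in PVCre and differed by -0.36 in PV-tdTomato, a line difference of 5.91 (adjusted p = 0.043). Gsta4, a glutathione transferase, was at 10.64, 10.37, 10.46 and 9.92 in PVCre striatum and at 7.34, 7.23, 7.02 and 7.39 in cortex, a rise of 3.10 ± 0.29 against 0.72 in PV-tdTomato (line difference adjusted p = 0.031). Ptprg, a receptor phosphatase, rose by 1.80 against -0.32, and Plppr1, a neuronal membrane protein, by 1.25 against -1.04.

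Nr2f2, a transcription factor of interneurons from the caudal eminence, fell by 4.11 in PV-tdTomato and was not called in PVCre (1.07 ± 0.62), where cortex was at background, 5.22 to 5.35. Its line difference was 5.18 (adjusted p = 0.029). In the other direction, Gfra2, the neurturin coreceptor, differed by -0.83 in PVCre and 2.16 in PV-tdTomato, and Crym rose by 0.78 and 2.71. Cemip2, Tbc1d22b and Grik3 fell in PVCre by 1.84, 0.97 and 0.87 and differed by 0.49, 0.15 and 0.76 in PV-tdTomato (line differences -2.33, -1.12 and -1.63, adjusted p = 0.031, 0.049 and 0.026).

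**Figure D5:**
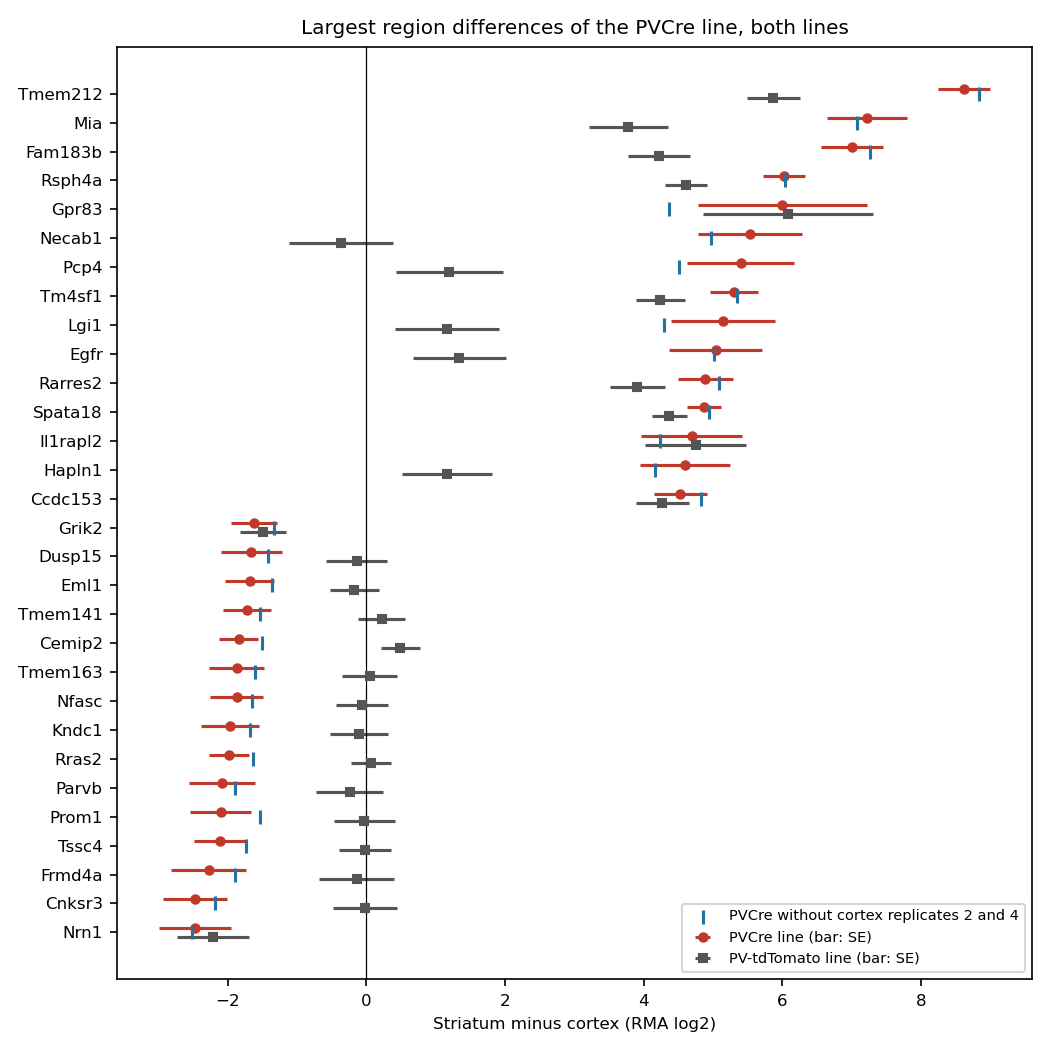
Difference between striatum and cortex (horizontal axis, RMA log2) of the 15 largest named rises and falls of the PVCre line (rows); red circles are PVCre and grey squares PV-tdTomato, with bars of 1 SE, and blue ticks are PVCre without cortical replicates 2 and 4. Cilia genes lie right of 0 in both lines, Necab1 lies at 5.54 and -0.36, and of the falls only Nrn1 and Grik2 lie below -1 in PV-tdTomato.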

How the data were processed

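RNA of sorted cells was hybridised to Affymetrix Mouse Transcriptome arrays, 5 ng amplified and 5.5 µg of cDNA labelled, per the labels' protocols. The log2 values deposited by the authors came from RMA (which corrects background, normalizes and summarises probe sets) run in Expression Console, per the submitters' processing notes. For its version and the annotation build, the sources used here give nothing. RMA puts all arrays on a common distribution, so a shift shared by all genes of an array is removed. The gene values used here still differed in distribution between the lines, as the shifts under quantile normalization given below show.

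Of 72688 probe sets, 6732 were controls. Clusters naming several genes (1534) or with no gene listed (33206) were left out, and 827 symbols were updated by Entrez number. For 364 genes with several clusters the one with the highest mean was kept, and the 33.3% of genes with the lowest mean (under 5.53) were left out. Array medians were 5.97 to 6.13. Arrays give no read depth, and their number limits precision.

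Each difference was tested by limma (version 3.58.1, with statmod 1.5.0 and R 4.3.3), with 1 mean per group and all 16 arrays in 1 fit, and adjusted over 20495 genes. On simulated data 58% of 100 genes changed by 1 and 87% of 100 changed by 2 were recovered, with 9 false calls. The simulation drew independent normal noise for each gene, with the same spread in all groups. Shifts shared by many genes of an array were not simulated, so these rates need not hold for the real arrays. Same-numbered PVCre arrays did not deviate together in all pairs (r = -0.00906, 0.281, 0.688 and -0.287), and numbers were not taken as pairs in the main fit. Whether same-numbered pools share mice is not settled by these values. Tables used pandas 2.3.3 and numpy 2.4.6, and plots matplotlib 3.10.9, under Python 3.11.15.

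Named by rule were the 15 largest rises and falls called without overlap of arrays, the 5 largest line differences each way, up to 6 members of each of 36 lists with the smallest p, and fixed identity and sex-linked genes; clones and predicted models were left out of the ranked names, and further genes were named after their values were seen. Members, lists and alternatives were chosen with earlier results of these data known. Alternatives were other filters, every cluster, 2 normalizations, a trended prior, array weights, the 8 PVCre arrays alone, replicate blocks, a minimum difference of 1 and arrays left out.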

Additional observations from a re-analysis of the deposited data

Results flagged for a closer look

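In 9 of 182 groups of 4 values examined, 1 array stood far from the other 3; chance alone marks about 1 group in 20 (5%). Striatal replicate 1 was low for Lgi1, at 12.43 against 14.40 to 14.63, and for Kndc1, at 9.74 against 10.46 to 10.61, and high for the mean of myelin markers, at 13.89 against 13.62 to 13.66. Striatal replicate 2 was high for Drd2, at 10.40 against 9.11 to 9.21. Xist was low in replicate 2 of striatum, at 5.90 against 13.40 to 14.34, and of cortex, at 6.56 against 14.78 to 15.03. In cortex, Hapln1 was high in replicate 3, at 8.15 against 6.05 to 6.40, Tbc1d22b in replicate 2, at 9.63 against 9.21 to 9.26, and the mean of pyramidal neuron markers in replicate 1, at 7.99 against 7.20 to 7.30.

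The named genes whose difference between regions differed between the lines, by the limma test of that difference, were these. It was larger in PVCre for Necab1 by 5.91 (5.54 against -0.36), for Nr2f2 by 5.18 (1.07 against -4.11), for Gsta4 by 2.38 (3.10 against 0.72), for Plppr1 by 2.30 (1.25 against -1.04) and for Ptprg by 2.13 (1.80 against -0.32). The difference of the lines was -2.99 for Gfra2 (-0.83 against 2.16), -2.33 for Cemip2 (-1.84 against 0.49), -1.93 for Crym (0.78 against 2.71), -1.63 for Grik3 (-0.87 against 0.76) and -1.12 for Tbc1d22b (-0.97 against 0.15). Line and any batch shared by a line cannot be told apart.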

How the results depend on the processing

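Of 53 named genes followed over 21 or 22 alternatives, those called kept their sign, whereas 7 that were not called took either sign: Pvalb (-0.28 to 2.85), Npy, Drd1, Xist, Eif2s3y, Kdm5d and Uty. The genes called for the difference between regions in PVCre, 797, numbered 625 to 1044 under other filters, every cluster, quantile normalization, centring, a trended prior and the 8 PVCre arrays alone. Quantile normalization moved the tested genes of each PVCre array by 0.0784 to 0.283 on average. Those of each PV-tdTomato array moved the other way, by -0.214 to -0.0633. With it 57 genes, against 40, were called for the difference between the lines, and the part of these shifts in that difference was not tested. Of its calls between regions in PVCre 64.4% were higher in striatum, against 73.3% of the 797. That share was 56.6% on the 8 PVCre arrays alone, 57.3% with array weights and 52.9% with the replicate block, and 89.0% without cortical replicates 2 and 4. The calls numbered 2483 with array weights, 106 with a minimum difference of 1 and 512 to 827 with single arrays left out. They numbered 318 without both cortical replicates 2 and 4 and 382 without replicates 2 of both regions. The difference between the lines, 40 genes, numbered 12 where 4 of the 8 PVCre arrays had to exceed background, 131 with array weights, 0 with a minimum difference of 1 (1466 at an unadjusted p under 0.05 with no minimum), and 21 to 33 with single arrays left out. It numbered 6 without both cortical replicates 2 and 4 and 10 without replicates 2 of both regions, and could not be fitted on the PVCre arrays alone. Fewer arrays enter where arrays are left out; the cause of the other changes was not tested. Of the 15 largest named rises 14 were called under all alternatives, and of the 15 falls 0 were. Low signal limits the 262 called rises and 19 called falls with a group mean no higher than the highest background mean.

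With the replicate number of the titles as a block, 2093 genes were called for the difference between regions, 1107 higher and 986 lower, and 128 for the difference between the lines. With the number of the descriptions as a random block the counts were 1270 and 103. In PVCre, same-numbered arrays correlated at r = -0.00906 to 0.688 in 3 pairs and at -0.287 in the fourth. These correlations over all tested genes cannot show whether same-numbered pools came from the same mice. Xist was low in replicate 2 of both regions, at 5.90 and 6.56, and a shared source was not tested.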

Other observations

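The first principal component of the 8 PVCre arrays held 54.9% of the variance and the second 18.4%. On the first, cortical replicates 2 and 4 lay at 74.2 and 68.8 and striatal replicates 3 and 4 at -62.9 and -59.6, while cortical replicate 3 lay at -27.9, beside striatal replicate 2 at -25.3. The first component thus did not separate the regions. The median SD of genes within a group was 0.216 in PVCre striatum and 0.263 in PVCre cortex, against 0.261 and 0.239 in the PV-tdTomato groups. These medians over all tested genes do not show sets with a wider spread, such as the myelin genes in PV-tdTomato.

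The Y-linked gene Eif2s3y was at 7.84, 9.20, 6.08 and 7.81 in PVCre striatum and at 6.28, 9.80, 6.13 and 8.59 in cortex. In the 2 arrays with low Xist, replicates 2 of both regions, it was highest. Striatal replicates 1 and 4 and cortical replicate 4 had both Xist above 13 and Eif2s3y at 7.81 to 8.59.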
